A study of Rattus norvegicus with 57 samples.

Results

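Kidneys of rats given the lower of 2 cisplatin doses, 1 mg/kg, were compared on day 3 with kidneys of saline-treated rats killed on the same day. The comparison holds the 10 arrays that the sample titles assign to these groups, 5 per group, out of 57 in the series. All animals were male Han Wistar rats (Crl:WI(Han)), 8 weeks old, that received a single intraperitoneal injection. The treated rats received 1 mg/kg cisplatin diluted in saline and the controls received saline alone. Each array measured total RNA of 1 rat, isolated from a piece of kidney enriched in cortex. The titles call the arrays of a group biological replicates, and the design text gives 6 animals per group, of which 5 per group are analysed here. Other groups of the same series, used only for reference, were 3 mg/kg on day 3 (5 rats) and 1 mg/kg with its own controls on day 5 (3 and 5 rats), day 8 (5 and 5) and day 26 (5 and 4).

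Cisplatin is a platinum drug that crosslinks the bases of DNA, and the kidney is its dose-limiting organ because proximal tubule cells take the drug up from the blood. Crosslinked DNA stalls polymerases and activates the transcription factor p53, which switches on genes that stop the cell cycle, trigger cell death and, through Mdm2, limit p53 itself. The comparison asks which kidney transcripts differed 3 days after the lower dose.

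Signals are on the linear scale of the MAS5 software, scaled to the same level on every array. Log2 changes are differences between group means of log2(signal + 16), given with the standard error of a limma fit over all 57 arrays, so that changes of dim genes are understated. A gene is said to have risen or fallen only where its limma p-value, adjusted over all 11683 genes tested by the Benjamini-Hochberg method, was under 0.05. Of these genes, 11 passed (0.0942%), 10 of them higher (0.0856%) and 1 lower (0.00856%). At an unadjusted p under 0.05 there were 704 genes (6.03%), 400 higher (3.42%) and 304 lower (2.6%). In 192 genes (1.64%) the 5 treated values all lay on one side of the 5 control values, 107 higher (0.916%) and 85 lower (0.728%). The median change over all genes was 0.01, and the central 90% lay between -0.18 and 0.18. Whatever their p-value, 10 genes differed by at least 2-fold between the group means, which is not a count of genes that passed.

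Markers of the proximal tubule were at similar levels in the 2 groups. The endocytic receptor Lrp2, a marker of the proximal tubule, ran from 2950 to 3395 in the controls and from 2995 to 3334 after cisplatin. Summed over 31 proximal tubule transporters, the signal was 43246 to 48087 in the controls and 43748 to 45691 in treated rats. The 9 liver markers summed to 497 to 844 in the controls and to 357 to 2381 in treated rats. The highest sum was in treated replicate 2, where albumin, Alb, read 1555, and without that array 7 genes passed. Alb was not confined to that array, with a mean of 315 in the day 3 controls and 147 after 3 mg/kg on day 3. In the controls of days 5, 8 and 26 its mean was 6.44, 2.51 and 3.20. The day 3 samples thus differed from later ones in liver transcripts, and the cause was not tested. The 3'/5' signal ratio of actin, which increases when RNA is degraded, was 4.66 ± 0.25 (SD, n = 5) in the controls and 5.09 ± 0.30 in treated rats (exact permutation test, two-sided, p = 0.0397, adjusted p = 0.0794 over 6 tests). The ratio of GAPDH was 1.34 ± 0.05 and 1.31 ± 0.04 (exact p = 0.468, adjusted p = 0.702). With the actin ratio as a covariate in limma, 8 of the 11 genes passed and Acox2, Mtmr4 and Trmt1l did not.

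Genes transcribed under p53 made up 5 of the 10 that rose: Ccng1, Plk2, Phlda3, Aen and Mdm2. Promoter sequences of Ccng1, Aen and Cdkn1a, another p53 target, from RefSeq on the GRCr8 rat assembly, show where the letters of a p53 half-site, the decamer that binds a p53 dimer, lie before the start of transcription. The half-site consensus, searched by name on both strands, occurs in 7.98% of 33469 rat promoters of 300 bases. It is present in 2 of the 11 genes that passed, Ccng1 and Aen, and in 7 of 33 genes of the p53 lists (21.2%) that have a promoter entry. Here and below, the share of promoters counts each entry, while a gene counts once if any of its entries matches. The 2 kinds of share are therefore not in the same unit, and a gene with several entries has more chances of a match. The stretches below show the match in capitals, 5' to 3' in the direction of the gene. That of Ccng1 is at chr10:25685049-25685126 on the minus strand, that of Aen at chr1:142224453-142224532 on the plus strand and that of Cdkn1a at chr20:7150682-7150790 on the plus strand. The matches begin 232, 30 and 201 bases before the start. A match is a description of the letters, and no match in Plk2, Phlda3 or Mdm2 says only that these letters are not in the window searched.
Ccng1: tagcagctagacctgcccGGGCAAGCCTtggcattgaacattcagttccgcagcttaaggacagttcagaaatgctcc
Aen: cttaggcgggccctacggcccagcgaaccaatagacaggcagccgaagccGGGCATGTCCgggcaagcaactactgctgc
Cdkn1a: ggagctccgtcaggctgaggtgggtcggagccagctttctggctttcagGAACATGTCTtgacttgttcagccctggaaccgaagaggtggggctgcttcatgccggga

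Ccng1 encodes cyclin G1, a p53 target that takes part in feedback on Mdm2. Its signal was 730.3, 878, 644, 724 and 714 in the 5 controls and 1451, 1484, 1533, 1321 and 1618 in the 5 treated rats. The lowest treated rat was far above the highest control. The change was 0.99 ± 0.09 (limma adjusted p = 3.63e-10), or 1.99-fold, and it had the smallest p-value of all genes tested.

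Plk2, a polo-like kinase of the DNA damage response, read 25.3, 28.9, 29.6, 32.8 and 27.5 in the controls and 52.5, 69.5, 77.1, 84.7 and 78.0 after cisplatin. It rose by 0.97 ± 0.14 (limma adjusted p = 1.9e-05), with treated replicate 1 the nearest to the controls. For Phlda3, which encodes a repressor of AKT signalling, the control values were 29.97, 31.3, 31.5, 22.3 and 35.1 and the treated values 53.3, 62.5, 58.1, 66.7 and 70.1. The groups were again separate, and the change was 0.77 ± 0.13 (limma adjusted p = 0.00252).

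Aen encodes an apoptosis-enhancing nuclease. Its controls lay close together at 57.8, 56.1, 60.1, 56.8 and 60.05, and its treated values were 79.6, 88.4, 87.6, 77.1 and 91.6. It rose by 0.44 ± 0.08 (limma adjusted p = 0.00476), and a second, dimmer probe set gave 0.35 ± 0.10. Mdm2, the ubiquitin ligase that degrades p53, read 207, 229, 239.8, 230.4 and 208 in the controls against 283, 278, 309.8, 283 and 306. This small rise of 0.37 ± 0.08 (limma adjusted p = 0.0374) was lost in 9 of the 10 fits that left out 1 array, all but that without control replicate 3, with adjusted p up to 0.142. Of 2 further Mdm2 probe sets, 1 gave 0.38 and the other, near background, 0.10.

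Cdkn1a encodes p21, the inhibitor of cyclin-dependent kinases through which p53 arrests the cell cycle. Its signal was 45.6, 34.0, 53.6, 60.5 and 72.0 in the controls and 82.3, 80.2, 94.6, 103 and 105 in treated rats. All 5 treated values were above all controls, but the change of 0.68 ± 0.19 did not pass over all genes (limma adjusted p = 0.259). The exact permutation test of this gene gave p = 0.00794, the smallest that 5 against 5 arrays allow (adjusted p = 0.0238 over 6 tests). Any gene with separate groups, of which there were 192 (1.64%), has this p, so it adds nothing to that separation.

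**Figure D1:**
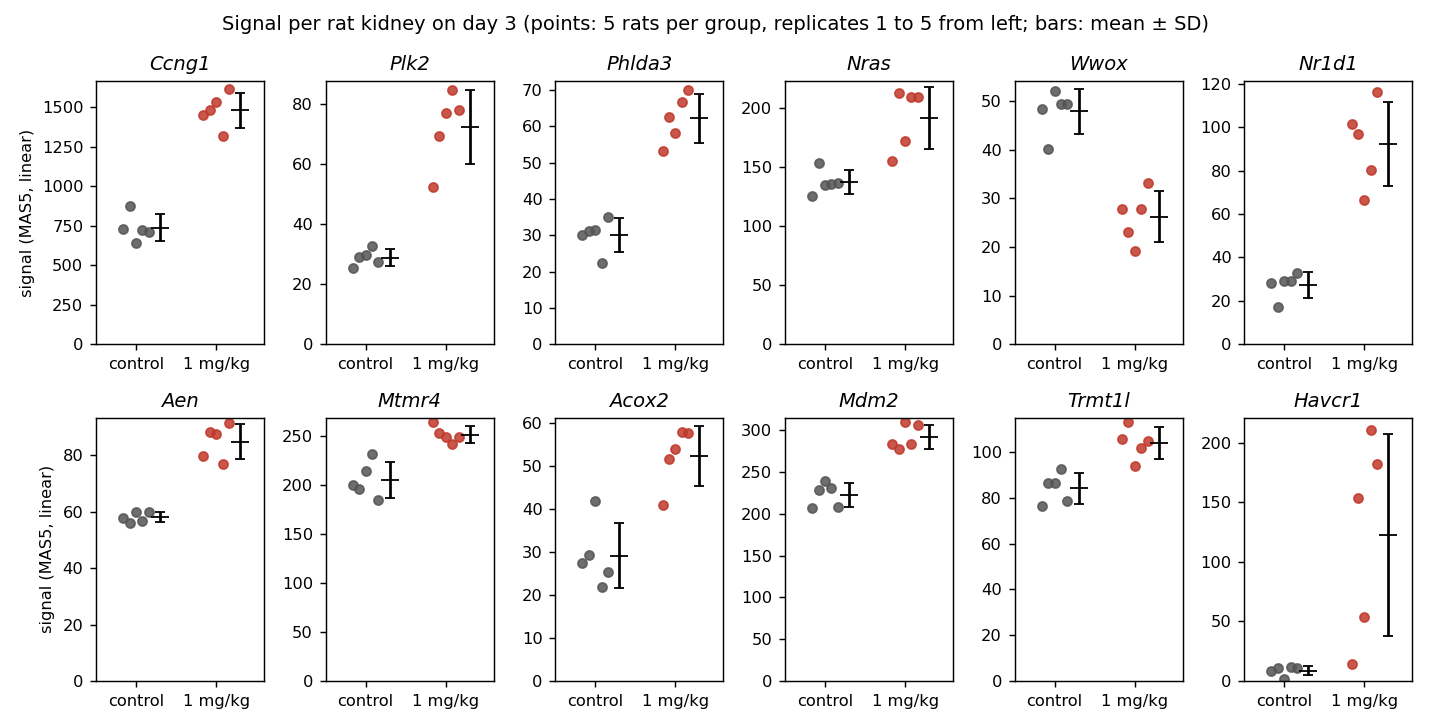
MAS5 signal (linear, vertical axis from 0) of the 11 genes that passed and of Havcr1 in each of the 5 control and 5 treated rats on day 3, with mean and SD beside the points. The groups are separate in every panel except that of Acox2, where control replicate 3 (41.9) lies above treated replicate 1 (41.0).

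Beyond these 5, no gene of the p53 lists passed. Among 15 measured genes of arrest and p53 feedback, 4 rose and 0 fell (0.0856% and 0.00856% of all genes did), and the median was 0.03. Of the 15, 6 lay above every control and 1 below (0.916% and 0.728% of all genes did). An unadjusted p under 0.05 was found for 6, all of them higher (3.42% of all genes were). The other 2 of the 6 were Cdkn1a and Sfn, which encodes the 14-3-3 sigma checkpoint protein and read 7.09 to 10.2 in the controls and 12.2 to 15.2 in treated rats (0.32 ± 0.15). All these Sfn signals were below the offset of 16, close to background, and its change was 0.82 without an offset and 0.12 with an offset of 64. In the same list Plk3 was lower in all treated rats (-0.25 ± 0.14, limma adjusted p = 0.895) and Gadd45a, a stress sensor of the same pathway, was at -0.07 ± 0.13. Of 9 measured p53 targets of cell death, 1 rose, Aen (0.0856% of all genes did), and 8 had a change above 0 (52.5% of all genes did). Their list had a median of 0.13, against 0.01 over all genes. Bbc3, which encodes the death protein PUMA, was 47.2, 49.2, 41.3, 51.3 and 51.1 in the controls and 52.0, 63.4, 55.3, 63.3 and 78.1 in treated rats (0.29 ± 0.09, limma adjusted p = 0.406). The groups of Bbc3 did not overlap, though treated replicate 1 was within 1 unit of the highest control. Bcl2l11, which encodes the death protein BIM and is not in these lists, lay on the other side, at -0.33 ± 0.10 and below every control in 5 of 5 rats (limma adjusted p = 0.329).

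None of 16 p53 targets of redox, metabolism and repair passed, and their median was 0.01. At an unadjusted p under 0.05, 1 was higher and 1 lower (3.42% and 2.6% of all genes were). The largest change of this list was that of Ddit4, at -0.75 ± 0.22 (limma adjusted p = 0.306), whose values are given below. Rps27l, a ribosomal protein-like p53 target, was 60.6 to 72.6 in the controls and 79.2 to 89.5 in treated rats (0.28 ± 0.09, limma adjusted p = 0.386). The sestrins Sesn1 and Sesn2 had changes of -0.15 ± 0.10 and -0.07 ± 0.14. Bax and Btg2 are not analysed here. Of 24 genes of excision and crosslink repair, the machinery that removes platinum adducts, 0 passed and 17 were above 0 (52.5% of all genes were). Their median was 0.05, with Ercc2 at 0.22 ± 0.10 and Ercc4 at 0.17 ± 0.08.

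**Figure D2:**
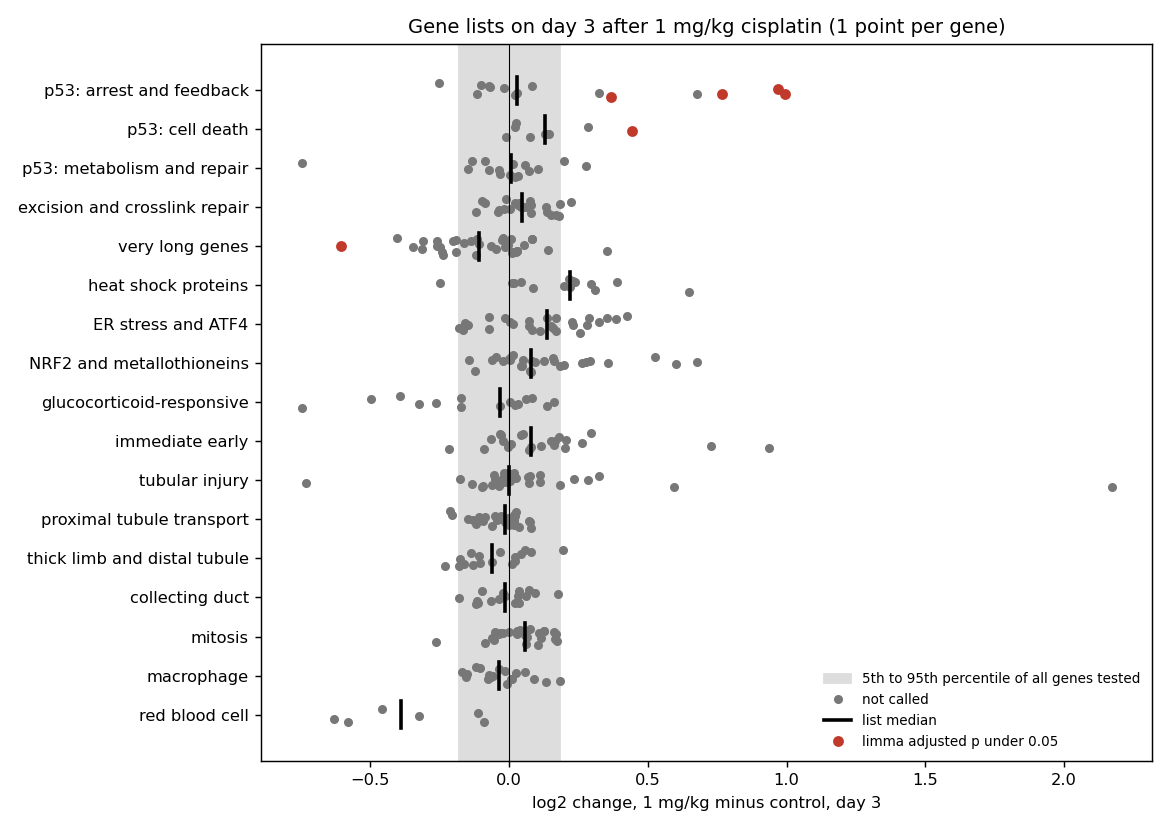
Log2 change on day 3 (horizontal axis, 1 mg/kg minus control) of each measured gene of 17 lists, with the list median as a bar and the 5th to 95th percentile of all genes tested, -0.18 to 0.18, in grey. Points in red passed limma, 5 in p53 lists above 0 and Wwox among the very long genes below 0; the point farthest to the right, at 2.17, is Havcr1.

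The gene with the highest fold among those that rose belongs to the circadian clock. Clock genes run as a loop in which Bmal1, with Clock or Npas2, drives the Per, Cry and Nr1d genes through E-boxes, while the repressor REV-ERB alpha, encoded by Nr1d1, silences Bmal1 through ROR elements. Nr1d1 read 28.3, 17.1, 29.1, 29.1 and 33.0 in the controls and 101, 96.7, 66.3, 80.2 and 116 after cisplatin. The lowest treated rat, replicate 3, was still far above the highest control, and the change was 1.31 ± 0.24 (limma adjusted p = 0.00465), or 2.49-fold.

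Nr1d2, the paralog of Nr1d1, and Bmal1 stood apart between the groups in opposite directions without passing. For Nr1d2 the controls were 197, 176, 273, 256 and 221 and the treated rats 438, 373, 330.5, 303 and 322 (0.62 ± 0.18, limma adjusted p = 0.26). Bmal1 was 95.4, 102, 76.5, 76.2 and 80.8 in the controls and 46.3, 50.5, 47.0, 72.3 and 46.3 in treated rats (-0.58 ± 0.15, limma adjusted p = 0.177). Treated replicate 4 alone came near the controls. Bmal1 passed in 2 of 25 alternatives, the fit of the 15 arrays of day 3 (adjusted p = 0.0292) and that with array weights (adjusted p = 0.0303).

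The other clock genes followed no single direction. Of 18 measured, 1 rose, 3 lay above every control in all treated rats (Nr1d1, Nr1d2 and Dbp) and 4 below (Bmal1, Cry1, Npas2 and Hlf). Over all genes, 0.0856% rose, 0.916% lay above every control and 0.728% below. Dbp, an output factor driven through E-boxes, was 58.4 to 71.8 in the controls and 84.3 to 138 in treated rats (0.59 ± 0.26, limma adjusted p = 0.769). Cry1, a repressor of the loop, was 80.7 to 113 and 46.1 to 71.3 (-0.56 ± 0.20, limma adjusted p = 0.541). Per3 had a change of 0.60 ± 0.16 with overlapping groups at signals of 1.02 to 20.9, close to background, and passed in 2 of 24 alternatives. Per1 (-0.17 ± 0.31), Per2 (-0.18 ± 0.20), Clock (-0.06 ± 0.05) and Tef (0.12 ± 0.12) overlapped between the groups. Per1 spread from 44.7 to 189 among the controls and from 91.2 to 130.4 among treated rats. The hour of death is not given in the labels, so its part in these values was not tested.

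Promoter stretches of Nr1d1 and Bmal1 are shown because these repress and receive repression in the loop. The E-box searched was CACGTG, which reads the same on both strands and is found in 6.42% of the 33469 promoters. It occurred in 3 of the 11 genes that passed, Nr1d1, Nras and Aen, and in 4 of 16 clock genes with an entry. The ROR element, searched by name on both strands, is in 0.356% of promoters and, among the clock genes, in Bmal1. The Nr1d1 stretch is at chr10:84229590-84229695 on the minus strand, from 1 of 2 start sites listed for the gene, and the Bmal1 stretch at chr1:176766258-176766327 on the plus strand. Capitals mark the E-box, which begins 191 bases before that start, and the ROR element, which begins 20 bases before its own.
Nr1d1: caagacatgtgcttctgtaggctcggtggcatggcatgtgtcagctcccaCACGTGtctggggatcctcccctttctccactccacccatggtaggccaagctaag
Bmal1: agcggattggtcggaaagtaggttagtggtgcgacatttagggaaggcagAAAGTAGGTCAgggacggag

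**Figure D3:**
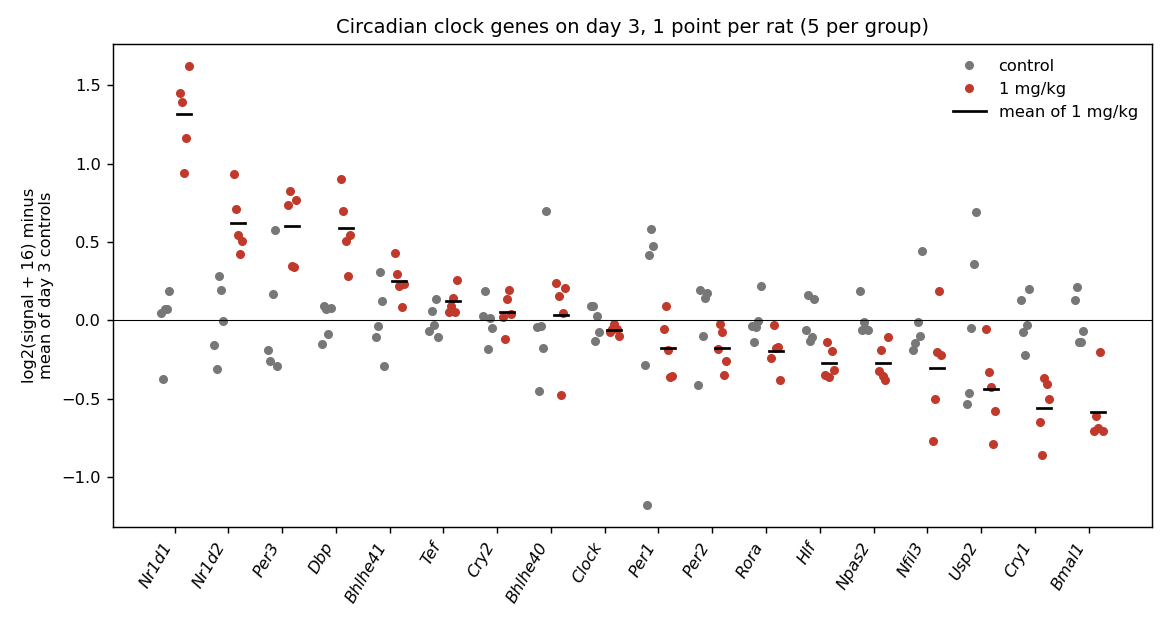
Log2(signal + 16) of 18 clock genes in each rat on day 3, as the difference from the mean of the 5 controls (grey: control, red: 1 mg/kg, bar: mean of the treated rats). Nr1d1, Nr1d2 and Dbp are above all controls in every treated rat, and Hlf, Npas2, Cry1 and Bmal1 are below.

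The 1 gene that fell was Wwox, which encodes a WW-domain oxidoreductase from a very long locus that contains a common fragile site. It was 48.3, 40.1, 52.1, 49.4 and 49.5 in the controls and 27.7, 23.2, 19.2, 27.8 and 33.3 in treated rats. No treated rat reached the lowest control, and the change was -0.60 ± 0.11 (limma adjusted p = 0.00465). A second Wwox probe set, with mean signals of 18.8 and 17.9, gave -0.04 ± 0.13, and with the mean of the probe sets the change was -0.32 (adjusted p = 0.264).

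Other genes of very long loci were listed beside Wwox. Of 35 measured, 1 fell and 0 rose, against 0.00856% and 0.0856% of all genes. An unadjusted p under 0.05 was found for 10 below 0 and 0 above, against 2.6% and 3.42% of all genes. A change above 0 was seen in 11, against 52.5% of all genes. The median was -0.11, or -0.06 without treated replicate 5. Fhit, at another fragile site, was 95.1, 102, 101, 109 and 118 in the controls and 92.0, 92.3, 77.9, 71.7 and 73.8 in treated rats (-0.31 ± 0.10, limma adjusted p = 0.367). Dpyd, which degrades pyrimidines, was 88.3 to 162 in the controls and 81.2 to 103 in treated rats (-0.40 ± 0.12, limma adjusted p = 0.292). The heparan sulfate proteoglycan gene Gpc6 was at -0.31 ± 0.10, Dlg2 at -0.24 ± 0.10 and Fggy at -0.19 ± 0.07. After 3 mg/kg on day 3, compared with the same controls, 8 of the 35 fell (4.28% of all genes did). Among them were Dpyd (-1.13), Immp2l (-1.17), Gpc6 (-0.68) and Fhit (-0.51). The list median there was -0.06, against -0.11 at 1 mg/kg, so the list as a whole was not lower at the higher dose. At 1 mg/kg on days 5, 8 and 26 the median was -0.004, 0.01 and 0.05.

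Nras, Mtmr4, Acox2 and Trmt1l also rose and are in no p53 list. Nras, a small GTPase of growth factor signalling, was 125, 154, 135, 136 and 137 in the controls and 156, 213, 172, 209 and 209.8 in treated rats (0.43 ± 0.08, limma adjusted p = 0.00439). A dimmer second probe set gave -0.04 ± 0.07, and Nras did not pass in the fits of the 10 or the 15 day 3 arrays alone (adjusted p = 0.0894 and 0.115). Acox2, a peroxisomal oxidase of branched-chain fatty acids and bile acid precursors, was 27.4, 29.3, 41.9, 21.8 and 25.4 against 41.0, 51.5, 53.9, 57.97 and 57.7. Its groups touched at control replicate 3 and treated replicate 1, and the rise was 0.61 ± 0.13 (limma adjusted p = 0.0343). Mtmr4, an endosomal lipid phosphatase, rose by 0.28 ± 0.06 (limma adjusted p = 0.0338), from 184 to 232 in the controls and 242 to 265 in treated rats. Dimmer Mtmr4 probe sets gave 0.11 ± 0.07 and 0.23 ± 0.10. With the mean of the probe sets the change was 0.21 (limma adjusted p = 0.22). Trmt1l, related to tRNA methyltransferases, rose by 0.26 ± 0.06 (limma adjusted p = 0.0417), from 76.3 to 92.8 and 93.8 to 113. Leaving out 1 array ended the call of Acox2 in 8 of 10 fits, of Mtmr4 in 7 and of Trmt1l in 8, with adjusted p up to 0.136, 0.163 and 0.212.

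Among markers of tubular injury, Havcr1, which encodes the KIM-1 protein shed into urine by damaged proximal tubules, had the largest change of any named gene without passing. It was 8.03, 10.6, 1.83, 11.8 and 11.1 in the controls and 14.0, 154, 53.9, 211 and 182 in treated rats. Treated replicate 1 was barely above the controls, while replicates 2, 4 and 5 were well above them. The change was 2.17 ± 0.62 (limma adjusted p = 0.261). The exact permutation p was 0.00794, the value of any gene with separate groups (adjusted p = 0.0238 over 6 tests). Havcr1 passed in 1 of 25 alternatives, the fit of the 15 day 3 arrays (adjusted p = 0.0392, against 0.092 in the fit of the 10 compared arrays and 0.0953 with array weights). All control signals were below the offset of 16, and the change was 3.55 without an offset and 1.21 with an offset of 64. Of 30 injury genes 0 passed, and the median was 0.00. At an unadjusted p under 0.05, 3 were higher and 1 lower (3.42% and 2.6% of all genes were). Lcn2, which encodes NGAL, was 27.3 to 34.6 in the controls and 23.2 to 38.4 in treated rats (0.00 ± 0.34, exact p = 0.984), and Clu, clusterin, was 183 to 219 and 189 to 205 (-0.00 ± 0.38, exact p = 0.976). Tnfrsf12a, the receptor of the cytokine TWEAK, was 61.7 to 89.6 and 89.8 to 138 (0.59 ± 0.25, limma adjusted p = 0.697), and it passed in 1 of 25 alternatives, the fit of the 15 day 3 arrays (adjusted p = 0.0333). Spp1, osteopontin, was at 0.23 ± 0.29 and Timp1, a metalloproteinase inhibitor, at 0.33 ± 0.29.

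The genes of tubule segments and of division differed little. Medians were -0.01 for 31 proximal tubule transporters, -0.06 for 17 genes of the thick limb and distal tubule and -0.01 for 17 of the collecting duct, with 0 members of these lists under an unadjusted p of 0.05. The cation transporter Slc22a2, through which cisplatin enters the proximal tubule, was at -0.11 ± 0.20, Umod at 0.01 ± 0.52 and Egf at -0.14 ± 0.36. For 25 mitosis genes the median was 0.06, with Mki67 at 0.06 ± 0.18, and none of the 19 macrophage or 10 lymphocyte markers had an unadjusted p under 0.05. Of 10 podocyte markers, Synpo (0.28 ± 0.09) and Wt1 (0.21 ± 0.09) were higher at an unadjusted p under 0.05 (3.42% of all genes were). The podocyte median was 0.05, with 7 of the 10 above 0. Of 16 endothelial markers, Ptprb (-0.15 ± 0.07), Kdr (-0.18 ± 0.09) and Eng (-0.15 ± 0.08) were lower at that p (2.6% of all genes were). The endothelial median was -0.01, with 7 of the 16 above 0, and no marker of either list passed. All 6 measured markers of red blood cells were below 0, with a median of -0.39 and 0 passing. Alas2, the first enzyme of heme synthesis in red cells, was 59.1, 65.4, 34.9, 62.3 and 58.2 in the controls and 34.4, 34.2, 34.9, 36.5 and 39.0 in treated rats (-0.46 ± 0.24). The alpha-globin gene Hba-a3 was 297 to 387 and 167 to 278 (-0.63 ± 0.34, limma adjusted p = 0.895), and in homogenised tissue fewer red cells cannot be told apart from less RNA per cell.

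Stress genes outside p53 were mostly above 0 by small amounts, and none passed. Of 27 measured genes of endoplasmic reticulum stress, 20 were above 0 (52.5% of all genes were) and the median was 0.14. At an unadjusted p under 0.05, 9 were higher and 2 lower (3.42% and 2.6% of all genes were). The folding enzyme Pdia4 was 251, 279, 245, 292 and 291 in the controls and 348, 340.0, 368, 333 and 331 in treated rats (0.33 ± 0.09, limma adjusted p = 0.217), with no overlap; it passed in 1 of 25 alternatives, that with array weights (adjusted p = 0.049). Manf, a secreted stress factor, was 304 to 417 and 434 to 561 (0.39 ± 0.11, limma adjusted p = 0.233). Ddit3, the death-linked factor CHOP, was 105 to 170.5 and 175 to 206 (0.42 ± 0.14, limma adjusted p = 0.411). Hspa5, the chaperone BiP, was at 0.35 ± 0.11 and the factor Xbp1 at 0.29 ± 0.09, both with overlapping groups. After 3 mg/kg on day 3, compared with the same controls, 4 of the 27 rose (5.57% of all genes did), namely Ero1b (0.54), Ddit3 (0.43), Trib3 (0.37) and Chac1 (0.33). The median there was 0.10, with Pdia4 at 0.08 ± 0.09 and Manf at 0.19 ± 0.11.

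Promoters of Hspa5 and Xbp1 carry the endoplasmic reticulum stress response element, searched as CCAAT, any 9 bases and CCACG on both strands. It is found in 0.0657% of the 33469 promoters and in 6 of 24 genes of the list with an entry. The stretches are at chr3:38452923-38453015 and chr14:84604508-84604622, both on the plus strand, with the element in capitals. It begins 43 and 65 bases before the start.
Hspa5: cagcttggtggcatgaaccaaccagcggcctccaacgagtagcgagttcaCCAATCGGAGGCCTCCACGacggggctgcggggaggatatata
Xbp1: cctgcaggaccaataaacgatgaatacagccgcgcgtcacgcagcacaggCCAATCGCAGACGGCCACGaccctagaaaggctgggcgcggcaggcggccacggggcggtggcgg

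Heat shock proteins had a median of 0.22 over 14 genes, with 13 above 0 (52.5% of all genes were) and 0 passing. Their median at 3 mg/kg on day 3, against the same controls, was 0.06. There 0 rose and 1 fell (5.57% and 4.28% of all genes did). At 1 mg/kg on days 5 and 8 the median was -0.01 and -0.01. The inducible chaperone gene Hspa1a was 91.2, 94.4, 129, 163 and 114 in the controls and 137, 338, 159, 302 and 109 in treated rats (0.65 ± 0.18, limma adjusted p = 0.207). Treated replicates 2 and 4 were above every control, and replicates 1, 3 and 5 were within the control range. The gene passed in 1 of 25 alternatives, that without treated replicate 5 (0.83, adjusted p = 0.0302). Chordc1, a co-chaperone of HSP90, was 327 to 385 and 389 to 505 (0.30 ± 0.09, limma adjusted p = 0.383). Treated replicates 2 and 4 were also the highest treated rats for Chordc1 (505 and 494) and for the list members Dnajb1 (505 and 440) and Dnaja1 (1673 and 1576). These genes moved together in the same rats, so they do not count as independent. The heat shock element, searched as GAA, TTC and GAA with 2 free bases in each gap, on both strands, is in 0.798% of promoters and in 5 of 13 genes of the list with an entry. Of 28 targets of NRF2, the antioxidant regulator, and metallothioneins, 22 were above 0 (52.5% of all genes were), 0 passed and the median was 0.08. Nqo1, a quinone reductase of that set, was 62.3, 55.2, 66.9, 74.3 and 52.1 in the controls and 89.4, 88.5, 103, 93.2 and 107 in treated rats (0.53 ± 0.16, limma adjusted p = 0.326), and it passed in 1 of 25 alternatives, the fit of the 10 arrays alone (adjusted p = 0.0429).

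Several genes spread widely among the controls. Ddit4, a repressor of mTOR, was 299, 254, 353, 664 and 356 in the controls and 166, 229, 255, 239 and 178 in treated rats (-0.75 ± 0.22, limma adjusted p = 0.306), with control replicate 4 apart from the rest. The glucocorticoid-responsive genes Sgk1 (1658, 1453, 2199, 3026 and 3564 in the controls against 1235 to 1906) and Tsc22d3 (516, 544, 621, 1005 and 1039.5 against 462 to 596) were highest in control replicates 4 and 5, as was the matricellular gene Ccn2 (839.8 to 2606 against 746 to 1052). Of 15 glucocorticoid-responsive genes, 0 passed and 3 were lower at an unadjusted p under 0.05 (2.6% of all genes were), with a median of -0.03. Eepd1, a nuclease of stalled replication forks, was tightly grouped at 62.0, 62.1, 57.3, 59.6 and 56.3 in the controls and 32.6, 26.1, 32.2, 32.4 and 28.6 in treated rats. Its change of -0.70 ± 0.17 had a limma adjusted p of 0.0785 over all arrays, and it passed in 3 of 25 alternatives, among them the fit of the 15 day 3 arrays (adjusted p = 0.00195).

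The remaining genes among the 10 largest changes in each direction with separate groups did not pass in the fit of all arrays. Mybl1, the transcription factor A-MYB, was 140.0 to 288 in the controls and 289 to 589.7 in treated rats (1.07 ± 0.29, limma adjusted p = 0.207), and it passed in 1 of 25 alternatives, the fit of the 15 day 3 arrays (adjusted p = 0.0223). Fndc1, with fibronectin domains, was at 0.95 ± 0.25 and the uncharacterised LOC102548472 at 0.71 ± 0.16 (limma adjusted p = 0.194 and 0.0699). LOC102548472, with control signals of 1.32 to 19.7, passed in 3 of 24 alternatives. Gtpbp4, a GTPase of ribosome assembly, was 562 to 731 in the controls and 385, 487, 98.0, 460.4 and 332 in treated rats (-1.03 ± 0.39, limma adjusted p = 0.581); without treated replicate 3, the lowest, the change was -0.65. The receptor gene Epha4 (-0.52 ± 0.15), Mlph (-0.49 ± 0.16), Nalf1 (-0.49 ± 0.19) and Raver2 (-0.49 ± 0.13) were below every control in all treated rats.

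The same genes were then followed at the other days and dose. At 3 mg/kg on day 3, compared with the same 5 controls, 1151 genes passed (9.85%), and the direct comparison of the doses passed for 365 (3.12%). Ccng1 was 1.84 ± 0.09 higher at 3 mg/kg than in the controls, against 0.99 at 1 mg/kg, and Plk2 2.0 against 0.97. Phlda3 was at 1.76, Aen at 0.90, Mdm2 at 1.07 and Cdkn1a at 2.09. The 3 mg/kg level was above the 1 mg/kg level for these 6 genes, by 0.84 (limma adjusted p = 7.2e-08) for Ccng1, 1.04 (1.5e-06) for Plk2, 1.00 for Phlda3, 0.46 for Aen, 0.70 for Mdm2 and 1.42 (2.7e-06) for Cdkn1a. For Nr1d1 the difference between doses was 0.46 ± 0.25 (limma adjusted p = 0.31), for Wwox -0.23 ± 0.11, for Nras -0.22 ± 0.08 and for Acox2 -0.02 ± 0.13, none of which passed.

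At 1 mg/kg on later days, 2 genes passed on day 5 (0.0171%), 61 on day 8 (0.522%) and 1 on day 26 (0.00856%). Ccng1 and Plk2 were the 2 of day 5, at 0.64 ± 0.11 and 0.82 ± 0.16. On day 8 Ccng1 (0.59), Plk2 (0.87), Phlda3 (0.68), Nr1d1 (1.09), Mdm2 (0.39), Cdkn1a (1.32) and Havcr1 (2.80) passed. Wwox was at 0.05 on day 5, -0.31 on day 8 and 0.18 on day 26. None of the 11 passed on day 26, when Ccng1 was at 0.00 ± 0.10 and Plk2 at 0.12 ± 0.14. The effect on Ccng1 was smaller on day 26 than on day 3 by the interaction test (-0.99, limma adjusted p = 3.6e-05), the 1 gene of 11683 (0.00856%) to pass it. No gene passed the corresponding limma test for day 5 or day 8 against day 3, where 432 (3.7%) and 733 (6.27%) genes had an unadjusted p under 0.05.

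**Figure D4:**
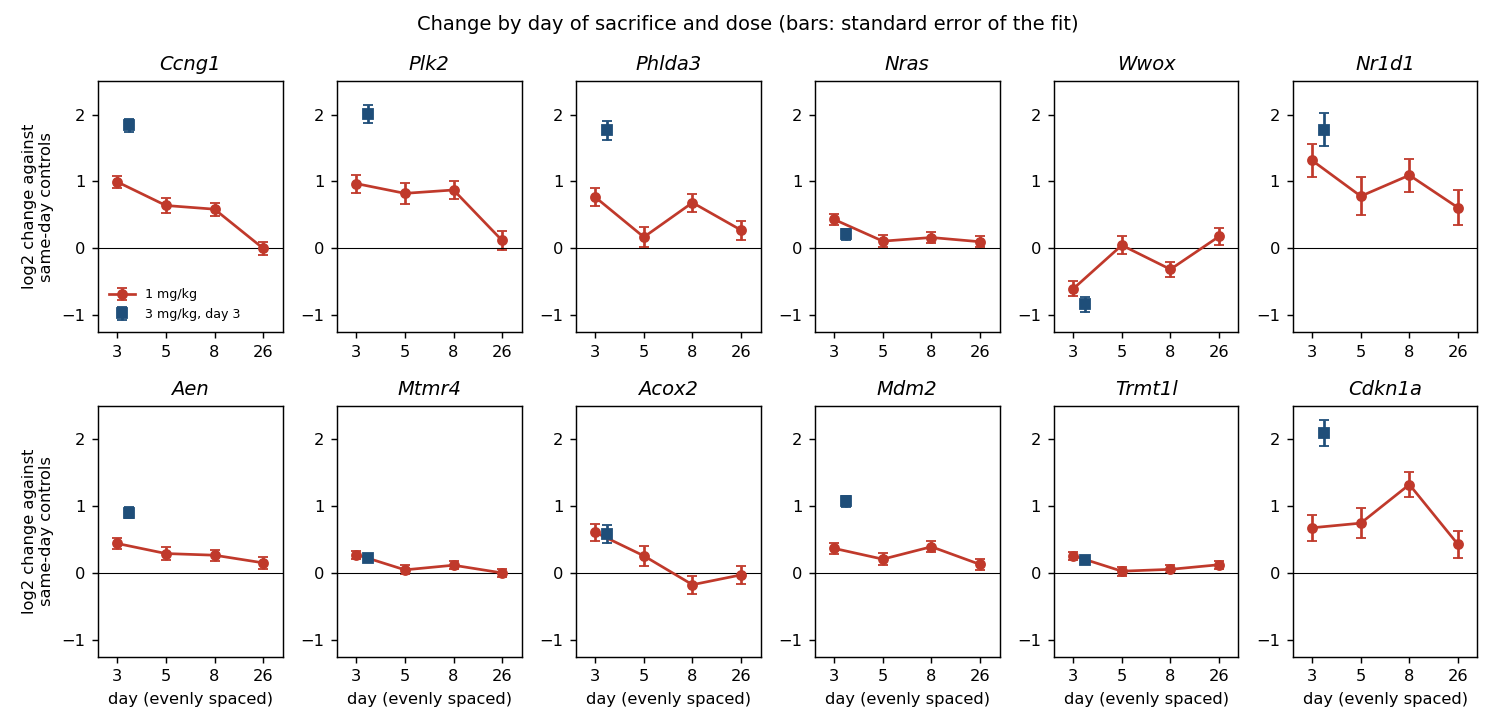
Log2 change against same-day controls (vertical axis, bars: standard error) of the 11 genes and Cdkn1a after 1 mg/kg on days 3, 5, 8 and 26 (red, evenly spaced days) and after 3 mg/kg on day 3 (blue). Ccng1 goes from 0.99 on day 3 to 0.00 on day 26, and the blue squares of Ccng1, Plk2, Phlda3, Aen, Mdm2 and Cdkn1a are above the red points of day 3.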

How the data were processed

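Kidney RNA of 57 rats was hybridised to 1 Affymetrix Rat 230 2.0 array each. The deposited values are linear intensity values per probe set, which the authors made with the MAS5 algorithm (named in the submitters' processing notes). Its version and settings were not stated. Each array had a trimmed mean of 99.99, leaving out 2% at either end. Of 31099 probe sets, 57 controls were left out, 436 had several symbols and 9780 none, and neither kind was named. Probe sets above the 40th percentile of an array on at least 3 arrays (21829) were kept, and the brightest per gene, on log2(signal + 16), was tested (11683 genes).

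A mean for each of 12 groups was fitted over all arrays with limma 3.58.1 in R 4.3.3 (eBayes with trend, two-sided, Benjamini-Hochberg, threshold 0.05). Exact permutation tests used the 10 arrays. Precision is limited by the number of arrays. Within the 2 groups arrays correlated at 0.989 to 0.993. The fit was tested on simulated data.

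The groups, lists and genes were chosen with earlier results of these data known. Genes were named where they passed (up to 30) or were among the 10 largest rises or falls with separate groups. Named too were genes of a fixed list and, in each list, those with the 4 smallest p-values. Immp2l, Sfn and a few others described beside them are members named in addition. Promoters came from RefSeq (GRCr8), 250 bases before and 50 after each start, with overlapping matches counted. Shares of promoters are per entry, and counts within lists are per gene. Alternatives varied offset, normalization, filter, probe sets, variance model, arrays, weights, replicate block and actin ratio.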

Additional observations from a re-analysis of the deposited data

Results flagged for a closer look

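In 196 groups of 5 values screened, 11 had an array farther from the others than Dixon's 95% critical value of 0.71 allows, where chance gives about 5%. In the controls, Nr1d1 read 17.1 in replicate 2 against 28.3 to 33.0 in the others, Alas2 read 34.9 in replicate 3 against 58.2 to 65.4, and Npas2 read 138 in replicate 1 against 114 to 119. Among the treated rats, Bmal1 read 72.3 in replicate 4 against 46.3 to 50.5, and Gtpbp4 read 98.0 in replicate 3 against 332 to 487. Treated replicate 2 stood apart for Cps1, a liver and small intestine enzyme, at 77.8 against 15.4 to 17.5, for Immp2l at 35.8 against 51.5 to 58.9, and for Slc22a2 at 1112 against 929 to 978. Hbb, beta-globin, read 1189 in treated replicate 1 against 1549 to 1674. The GAPDH 3'/5' ratio was highest in replicate 5 of both groups, at 1.42 against 1.29 to 1.32 in the controls and at 1.38 against 1.28 to 1.31 in the treated rats.

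The effect of 1 mg/kg on Ccng1 differed between days, by -0.99 from day 3 to day 26 in the interaction test of limma.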

How the results depend on the processing

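The count of 11 genes was 7 when probe sets of a gene were averaged, 18 in the fit of the 15 day 3 arrays and 22 with array weights. With every kept probe set tested on its own, 17 of 21829 probe sets passed. In that fit 10 of the 11 genes were kept and Trmt1l was lost. Leaving out 1 array at a time gave 7 to 11, the lowest without control replicate 1 and without treated replicate 2. The other alternatives gave 8 to 12, with 8 in the fit with the actin ratio as a covariate, which lost Acox2, Mtmr4 and Trmt1l. Ccng1, Plk2, Phlda3, Nr1d1 and Aen passed in all 25 alternatives, Wwox in 24, Nras in 22, Mdm2 in 14, Acox2 and Mtmr4 in 13 and Trmt1l in 10; the cause was not tested. With a replicate block the count was 8, and 7 of the 11 were kept. Replicate numbers did not pair the samples: deviations of same-numbered arrays correlated at -0.116 to 0.054, and 1 of 5 numbers correlated best with its own. The red blood cell median of -0.39 was -0.60 without an offset and -0.19 with an offset of 64. The 2-gene neutrophil list and others with no gene left gave no value at the 60th percentile.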
